A study of Bubalus bubalis with 12 samples.

Results

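The aryl hydrocarbon receptor (AHR) battery comprises the receptor, its partner, its repressors and the detoxifying genes that the receptor is known to induce, and is described here in the ruminal wall of dairy buffaloes. The genes were chosen by their known role and selected on measured values of the same animals. LOC102399021 and LOC102396388, named CYP1A1 and UGT1A9 in the study, belong to the study's own differentially expressed genes (DEGs) between the diets. The study called these with edgeR at a nominal p-value below 0.05, and found no gene after FDR adjustment. Of the 9 genes named, 7 were found under their symbol among the 34037 genes of the FPKM table, namely AHR, ARNT, AHRR, TIPARP, LOC102399021, LOC102396388 and ALDH3A1. CYP1A2 and CYP1B1 were not analysed here. For the diets, the values of these genes are therefore a description.

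The study addressed how green forage relates to gene expression in the ruminal wall of Italian Mediterranean dairy buffaloes of about 8 years of age. The control group of 6 animals was fed a total mixed ration (TMR), and the treated group of 6 animals was fed TMR + green feed, with fresh ryegrass as about 30% of the diet. The trial lasted 60 days after 14 days of adaptation, and 1 stranded total RNA library per animal was made from rumen wall taken at slaughter. The treated ration also held less corn silage and alfalfa hay and no soybean meal, so that ryegrass and these feeds cannot be told apart.

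AHR is a ligand-activated transcription factor that is kept in the cytosol by chaperones and, once a ligand binds, enters the nucleus and pairs with ARNT. The pair binds DNA near its target genes, of which CYP1A1 is the classical example, and induces its own brakes, AHRR and TIPARP. Ligands include plant compounds, products of tryptophan breakdown by host and microbes, and aromatic pollutants, and barrier epithelia such as those of skin and gut are well known sites of AHR activity.

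Expression is given as FPKM, the fragments of a gene scaled by its length and by all fragments counted in that animal, which allows levels to be compared between genes. The reads behind the FPKM could be worked out, with 10531245 to 12947982 reads on genes per animal. Fold changes between diets are given as log2 fold changes, that is, the mean log2(FPKM + 0.01) of the treated animals minus that of the controls, with the standard error (SE) from limma. In total, 12642 genes passed the threshold on reads and were tested, among them 6 of the 7 genes of the battery. ALDH3A1 did not pass.

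Receptor, partner and TIPARP were well expressed in every animal, and the repressor AHRR and ALDH3A1 were low. Over the 12 animals the mean was highest for TIPARP (29.8 FPKM), followed by LOC102399021 (16.2 FPKM), LOC102396388 (15.7 FPKM), ARNT (14.1 FPKM), AHR (13.2 FPKM), AHRR (0.740 FPKM) and ALDH3A1 (0.216 FPKM). The order differed by diet, as LOC102399021 had the second highest mean in controls but a lower mean than ARNT, AHR and LOC102396388 in treated animals. From LOC102399021 to AHR, neighbours in this order did not differ beyond their spread. LOC102399021 was above LOC102396388 in only 4 of 12 animals, LOC102396388 above ARNT in 7 and ARNT above AHR in 8. TIPARP was above LOC102399021 in 10 of 12 animals, while AHR was above AHRR and AHRR above ALDH3A1 in all 12.

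**Figure D1:**
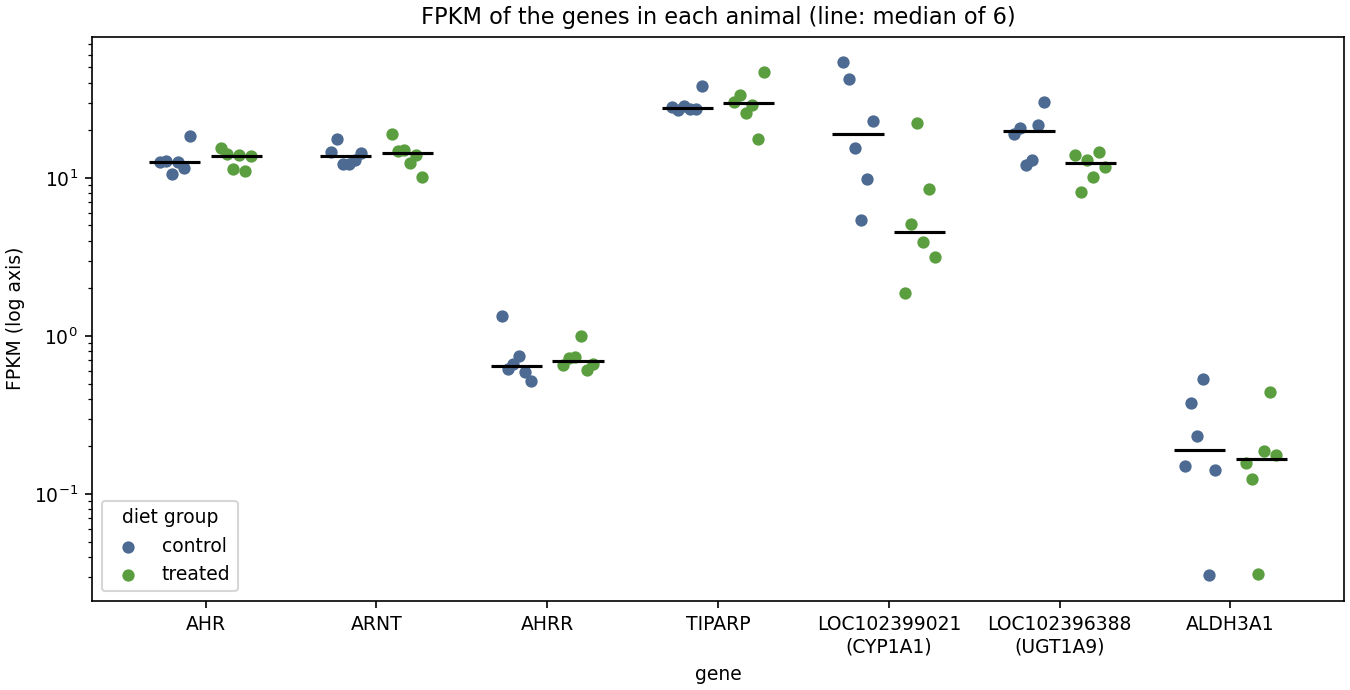
FPKM of the 7 genes in each of the 12 animals on a log axis, with control animals in blue, treated animals in green and the median of the 6 animals of a group as a line. The treated median of LOC102399021, 4.52 FPKM, lies below the control median of 19.1 FPKM with overlapping groups, while the medians of AHR, ARNT, AHRR and TIPARP lie close together.

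The receptor AHR (gene 102395650) ranged from 10.6 to 18.4 FPKM in controls (median 12.6) and from 11.0 to 15.4 FPKM with green feed (median 13.8). Control replicate 6 was the highest of all 12 animals and the other animals of both groups overlapped. The group means were 13.1 ± 2.73 FPKM in the control and 13.3 ± 1.73 FPKM in the treated group (mean ± SD, n = 6 each). The log2 fold change was 0.03 (SE 0.14), which is smaller than its error. With an SD of 0.24 on the log2 scale between animals of the same diet, AHR varied less than most genes, as 23.0% of the genes tested, and 38.8% of the 1000 genes closest to it in mean FPKM, had a smaller SD.

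ARNT (gene 102407029), the partner that AHR shares with the hypoxia-inducible factors, ranged from 12.2 to 17.7 FPKM in the control group with a median of 13.7. In the treated group it ranged from 10.1 to 19.1 FPKM with a median of 14.4. The lowest and the highest of all 12 values were both from treated animals, replicates 6 and 1, so that the control range lay inside the treated range. The log2 fold change was 0.00 (SE 0.15).

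AHRR (gene 102390844), which competes with AHR for ARNT and is itself a target of AHR, was counted with 37 to 113 reads per animal. It ranged from 0.521 to 1.33 FPKM in the control group (median 0.643) and from 0.613 to 0.995 FPKM in the treated group (median 0.695). Control replicate 1, which also had the highest LOC102399021, stood above all other animals, and the rest of both groups overlapped. The log2 fold change was 0.03 (SE 0.26). Within each animal, AHR had between 9.52 and 35.2 times the FPKM of AHRR, with a median of 18.7 times.

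TIPARP (gene 102398681), an ADP-ribosyltransferase that modifies AHR and promotes its loss, ranged from 26.8 to 38.0 FPKM in the control group with a median of 27.7. In the treated group it ranged from 17.7 to 46.7 FPKM (median 29.6). Among the controls, 5 animals lay close together and replicate 6 was higher, whereas the treated group held both the lowest animals and the highest animal. On the log2 scale the SD of the controls was 0.19 and that of the treated animals 0.46, a difference in spread that was not tested. The log2 fold change was 0.01 (SE 0.19).

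LOC102399021, named CYP1A1 in the study, encodes the monooxygenase that oxidises aromatic ligands of AHR and thereby clears them. In the control group its FPKM were 53.8, 42.5, 15.4, 5.39, 9.82 and 22.8 in replicates 1 to 6. In the treated group they were 1.86, 5.12, 22.3, 3.91, 8.46 and 3.18. Controls 1, 2 and 6 were above every treated animal and 4 treated animals were below every control, but treated replicate 3 lay among the higher controls and the groups overlapped.

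The mean of LOC102399021 was 24.9 ± 19.2 FPKM in the control and 7.48 ± 7.61 FPKM in the treated group (mean ± SD, n = 6 each), and the log2 fold change was -1.81 (SE 0.62). Within a diet the values spread widely, with the highest control at 9.99 times the lowest and a still wider range in the treated group. The SD of 1.25 within diets on the log2 scale compares with a median of 0.36 over all genes tested. It was larger than that of 97.2% of the genes tested and of 99.0% of the 1000 genes closest to it in mean FPKM. The gene was counted with 60 to 1820 reads per animal, all above the floor of 3 reads that was taken as the lowest number told from 0.

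LOC102396388, named UGT1A9 in the study, encodes a UDP-glucuronosyltransferase, an enzyme that couples glucuronic acid to phenols and other products of oxidation. Its FPKM were 19.1, 20.7, 12.1, 12.9, 21.6 and 30.4 in control replicates 1 to 6. In treated replicates 1 to 6 they were 13.9, 8.14, 13.1, 10.1, 14.5 and 11.8. In the control group, 4 animals were above every treated animal, while control replicates 3 and 4 lay within the treated range.

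The means of LOC102396388 were 19.5 ± 6.67 FPKM in the control and 11.9 ± 2.43 FPKM in the treated group (mean ± SD, n = 6 each), with a log2 fold change of -0.66 (SE 0.22). Its SD within diets, 0.42, was close to the median of all genes, and all 6 treated animals were below the control median. UGT1A transcripts of mammals share their last exons, and how reads were divided among such transcripts was not analysed here.

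ALDH3A1 (gene 102398004), an aldehyde dehydrogenase that is part of the classical AHR battery in liver cells, was barely detected. It was counted with 1 to 18 reads per control animal and 1 to 14 per treated animal, and 1 animal of each group was at or under the floor of 3 reads. The FPKM ranged from 0.0306 to 0.533 in the control group (median 0.191) and from 0.0313 to 0.444 in the treated group (median 0.167). Both groups covered about the same range, and a difference between the diets was not tested.

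Of the 6 genes tested, LOC102399021 and LOC102396388, that is 2, passed a nominal limma p-value of 0.05 for diet, beside 157 of all 12642 genes or 1.24%. Since these genes were selected on this same contrast, nothing is read from that count. None of the 6 genes had groups that did not overlap, as was the case for 7 of all genes tested (0.0554%). After Benjamini-Hochberg adjustment in limma, 0 of the 12642 genes (0%) passed 0.05, with 0.9997 as the smallest adjusted p-value. With voom on the reads, 144 genes passed 0.05 before adjustment and 0 after it.

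Markers of the cell types of the ruminal wall were read beside these levels. The keratinised squamous epithelium dominated, with 10 of 11 marker genes found and KRT5 as the most abundant at 1493 FPKM. The summed FPKM of its markers ranged from 2980 to 4697 in controls (median 4242) and from 3270 to 5265 in treated animals (median 4413). The groups overlapped almost fully.

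Of the tissue below the epithelium, all 6 smooth muscle markers tested and all 7 fibroblast markers tested had a negative log2 fold change, with sums that overlapped between the groups. So had 6162 of all 12642 genes tested, 5 of 6 endothelial and 4 of 10 squamous epithelium markers. DES and MYH11, both smooth muscle markers, are among the study's own DEGs from these animals, so that their direction is not independent evidence. Of the smooth muscle and fibroblast markers only 1, DES, chosen after its values were seen, passed a nominal limma p-value of 0.05, and none passed after adjustment. The summed FPKM of the 9 smooth muscle markers, with SMTN as the most abundant, ranged from 28.5 to 50.4 in controls (median 36.1) and from 15.4 to 40.1 in treated animals (median 24.3). That of the 7 fibroblast markers, led by COL3A1, ranged from 42.6 to 259 (median 95.5) and from 17.1 to 169 (median 85.6). None of these markers was at 0 in all animals.

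With the mean of the smooth muscle and fibroblast markers as a covariate, the log2 fold change was -1.32 (SE 0.73) for LOC102399021 and -0.62 (SE 0.27) for LOC102396388. With the mean of the squamous epithelium markers instead, the values were -1.77 (SE 0.65) and -0.62 (SE 0.22). Only LOC102399021 with the first covariate then had no nominal limma p-value below 0.05. Since both genes were selected on this contrast, nothing is read from that. The part of these cell types in the difference was not tested. In such tissue samples, fewer cells of a type and less RNA per cell cannot be told apart.

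Markers of other cell types were low in both groups. The summed FPKM of endothelial markers, of which all 6 were found with PECAM1 as the most abundant, had medians of 20.3 in controls and 17.9 in treated animals. The medians were 6.85 and 6.75 for 5 macrophage and dendritic cell markers, led by CSF1R, and 27.8 and 25.8 for 8 T and B cell markers, led by PTPRC, with CD79B at 0. For 5 enteric glia and neuron markers, led by S100B, they were 6.70 and 6.20, with SOX10 and ELAVL4 at 0. Hepatocyte markers, which mark the organ best known for CYP1A1 induction, summed to at most 1.82 FPKM in any control animal and 0.347 FPKM in any treated animal over 6 genes, with TTR as the most abundant and APOB at 0. Their medians were 0.357 and 0.0894, and the mean log2 sum was 2.16 lower in treated animals. The highest sums were those of control replicates 6 (1.82 FPKM) and 3 (1.44 FPKM). None of these 6 genes had enough reads to be tested, so that nothing is read from this difference.

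The variation of LOC102399021 among animals of the same diet was used to look at the other genes. The difference between the group means does not enter it, but a selection by p-values also depends on the spread within diets, and the part of this in the values was not tested. For each gene, the slope of log2(FPKM + 0.01) on the log2 level of LOC102399021, centred within each diet, was fitted with limma. Of the 5 other genes of the battery that were tested, 0 had a nominal p-value below 0.05, beside 513 of 12641 genes (4.06%). At that share of all genes, none is expected among so few, and the count does not set the battery apart from other genes. It also depends on 1 animal, since ARNT had a nominal p-value below 0.05 (slope 0.14) without treated replicate 1. After adjustment in limma, 0 of all genes (0%) passed 0.05, the smallest adjusted p-value being 0.1724. With voom, 500 genes passed 0.05 before adjustment and 0 after it.

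The slope was -0.04 (SE 0.06) for AHR, 0.06 (SE 0.07) for ARNT, 0.07 (SE 0.12) for AHRR, -0.08 (SE 0.08) for TIPARP and 0.10 (SE 0.10) for LOC102396388, in log2 units per log2 unit of LOC102399021. The limma adjusted p-value was 0.998 for each of them. Each slope was thus about as large as its standard error or smaller, for the receptor, its partner and its brakes alike.

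As correlations over the 12 animals, of which 6 were computed, AHR had a Pearson r of -0.22 with LOC102399021 (permutation p = 0.527) and a Spearman rho of -0.20 (permutation p = 0.543). ARNT had an r of 0.30 (permutation p = 0.373) and a rho of 0.47 (permutation p = 0.140). AHRR had an r of 0.25 (permutation p = 0.490) and a rho of 0.08 (permutation p = 0.828). None of these p-values, from permutations of the animals within diets, was below 0.05.

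For the remaining genes, TIPARP had an r of -0.29 (permutation p = 0.398) and a rho of -0.37 (permutation p = 0.251). LOC102396388 had an r of 0.31 (permutation p = 0.350) and a rho of 0.21 (permutation p = 0.538). ALDH3A1, at few reads, had an r of -0.22 (permutation p = 0.503) and a rho of -0.17 (permutation p = 0.624). All tests were two-sided. The smallest p-value adjusted over the 6 relations was 0.527 for r.

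Single animals and diets weighed on these values. Without control replicate 1 and treated replicate 1, which lay farthest from the median of LOC102399021 before centring within diets, r was -0.09 for AHR, 0.80 for ARNT, -0.35 for AHRR, -0.31 for TIPARP, 0.49 for LOC102396388 and -0.23 for ALDH3A1. The value of ARNT had a permutation p of 0.0131, not adjusted, and those of the other genes 0.183 or more, p-values that were added after seeing the data. After centring the farthest animals were control replicate 4 and treated replicate 3. Without these, chosen after seeing the data, r was -0.10 for AHR, 0.15 for ARNT, 0.40 for AHRR, -0.37 for TIPARP, 0.04 for LOC102396388 and, turned in sign, 0.64 for ALDH3A1 (permutation p = 0.0706). No p-value of this second set was below 0.05, and ARNT thus depended on which animals were left out. For ARNT, r was 0.79 among controls and -0.03 among treated animals. The latter rests on single animals, being 0.72 without treated replicate 1 and -0.40 without treated replicate 6. For AHR, r was 0.23 among controls and -0.87 among treated animals, the latter -0.96 to -0.81 with any treated animal left out. Each of these rests on 6 animals, and the difference between the diets was not tested.

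**Figure D2:**
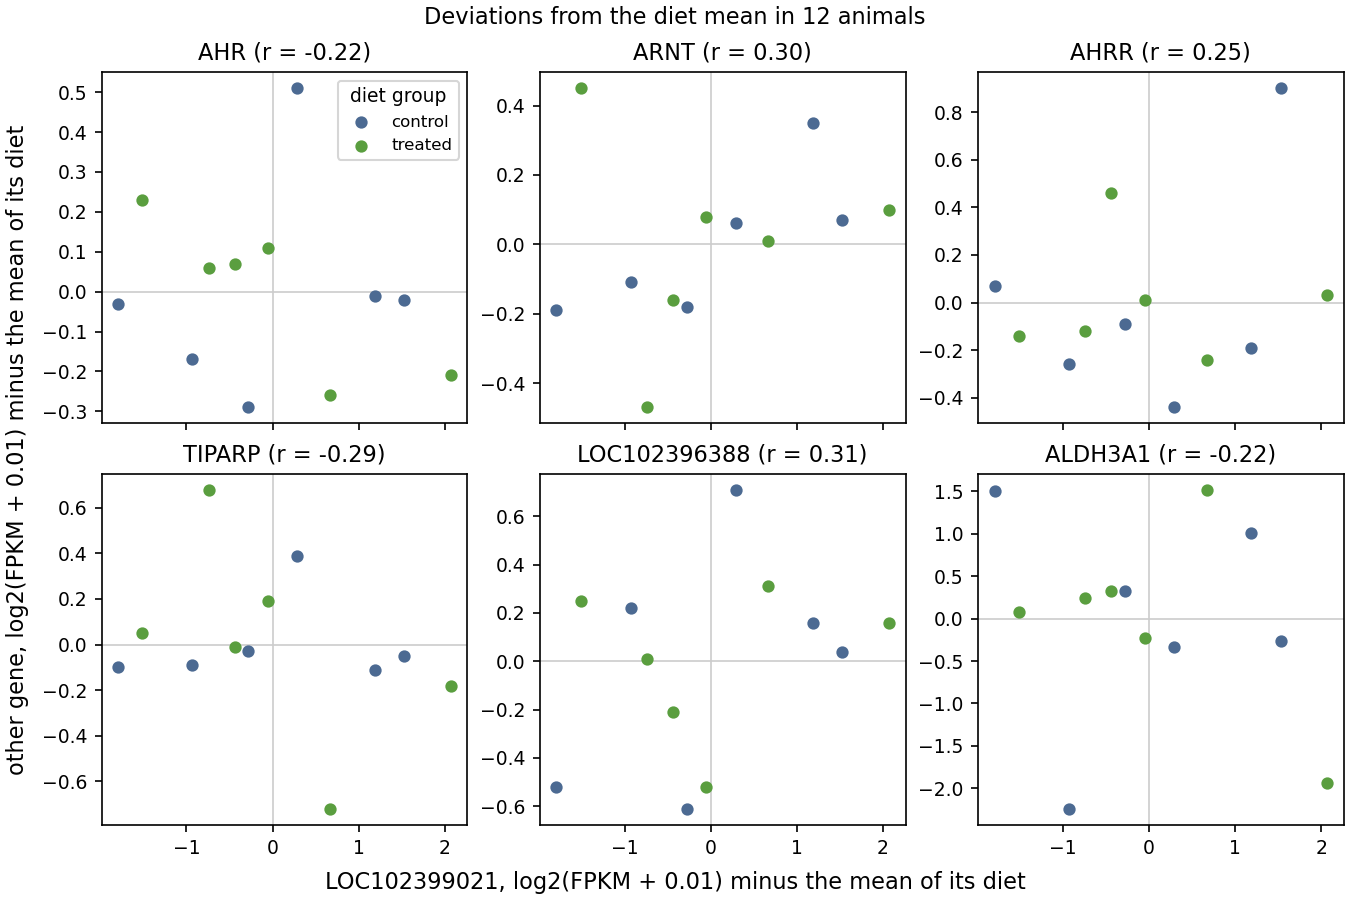
Each panel plots, for the 12 animals, the deviation of a gene from the mean of its diet on the log2(FPKM + 0.01) scale against the deviation of LOC102399021, with control animals in blue and treated animals in green. LOC102399021 spans from -1.79 to 2.07, while LOC102396388 spans only from -0.61 to 0.71 and AHR from -0.29 to 0.51.

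Among the other 6 genes themselves, 15 pairs were compared in the same way, a step chosen after seeing the data. The receptor and TIPARP had the highest r, 0.63 (permutation p = 0.0154), with a rho of 0.73 (permutation p = 0.0137). The r was 0.87 in the control group, 0.68 in the treated group and 0.63 without control replicate 6 and treated replicate 1, which were farthest from the median of AHR. The value among controls rests on replicate 6, as the other 5 controls had an r of -0.61. Over both groups r was 0.57 (permutation p = 0.156) without that animal, 0.56 (permutation p = 0.0736) without treated replicate 5, and 0.56 to 0.77 with each animal left out in turn, a step also chosen after seeing the data. After adjustment over the 15 pairs the p-values were 0.231 for r and 0.206 for rho, so that the relation fails the correction.

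AHRR and LOC102396388 had a rho of -0.66 (permutation p = 0.0285) and an r of -0.35 (permutation p = 0.381), which was -0.83 without control replicate 1 and treated replicate 4, the farthest from the median of AHRR, and -0.15 without control replicate 6 alone. With each animal left out in turn, chosen after seeing the data, r was -0.67 to -0.15. Its permutation p was 0.0210, not adjusted, without control replicate 1 and 0.256 or more without any other animal. The adjusted p-value of rho was 0.214. The other pairs had r between -0.32 and 0.40, and between -0.35 and 0.46 without 2 animals chosen in that way. AHR and ARNT, which act as a pair, had an r of 0.24 (permutation p = 0.438) and a rho of 0.30 (permutation p = 0.354). Without control replicate 6 and treated replicate 1 their r was -0.04, and that of AHR and LOC102396388 went from 0.40 to -0.27.

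The 10 genes most like LOC102399021 over the 12 animals, by Pearson r of values centred within diet among the genes tested, had r from 0.80 to 0.92. They were ABHD18, LOC112581779, LOC112580619, SLC40A1, NDUFAF1, COL24A1, ASTE1, LOC102403795, LOC112585635 and ERCC6L2. No other gene of the battery was among them, and they shared 0 genes with the 10 most like AHRR. As these are the highest of 12641 values of r, their size is set by the choice.

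ABHD18, an uncharacterised protein of the hydrolase fold family, had an r of 0.88 in the control and 0.96 in the treated group. Its slope was only 0.14 (SE 0.04), and its mean was 37.9 FPKM with TMR and 34.1 FPKM with green feed. SLC40A1, the iron exporter ferroportin, had an r of 0.87 in the control and 0.97 in the treated group and a larger slope of 0.41 (SE 0.08; limma adjusted p = 0.503). Its means were 45.3 and 36.5 FPKM. COL24A1, a fibrillar collagen, had a slope of 0.45 (SE 0.09; limma adjusted p = 0.767) and means of 12.4 and 9.84 FPKM. No slope of the 10 genes passed the adjusted threshold.

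The marker sums of the 8 cell types were related to LOC102399021 within diets in the same way. The r values ranged from -0.53 for T and B cells (permutation p = 0.0965) to 0.43 for hepatocytes (permutation p = 0.179), and were -0.14 for squamous epithelium (permutation p = 0.679), 0.40 for smooth muscle (permutation p = 0.220) and 0.07 for fibroblasts (permutation p = 0.844). Spearman's rho ranged from -0.37 for T and B cells (permutation p = 0.257) to 0.59 for hepatocytes (permutation p = 0.0596). The log2 number of reads per animal had an r of -0.23 (permutation p = 0.540) and a rho of -0.40 (permutation p = 0.222). No p-value of these relations was below 0.05. Without control replicate 1 and treated replicate 1, for which no p-value is given, r was -0.69 for T and B cells and 0.45 for hepatocytes. That of fibroblasts turned from 0.07 to -0.27 and that of endothelium from 0.23 to -0.25. For T and B cells r was -0.20 among controls and -0.80 among treated animals.

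The pathway was looked at through gene lists, 2 of which also hold genes of the battery. Over all genes tested, the median log2 fold change for diet was 0.01, and it was positive for 6480 genes and negative for 6162. No tested gene of these lists had a nominal limma p-value below 0.05 for diet, so that the genes given by their values are mostly the most abundant of each list. For the slope on LOC102399021, 4 of the 35 tested list genes outside the battery (11.4%) had one, beside 4.06% of all genes, and 0 passed after adjustment. They were NQO1 with a slope of 0.27 (SE 0.08), EPAS1 with 0.15 (SE 0.06), AADAT with 0.16 (SE 0.06) and SULT1C4 with 0.26 (SE 0.12), named here after their values were seen. The limma adjusted p-value was 0.998 for each, and each slope stayed positive with any 1 animal left out, that of NQO1 between 0.20 and 0.31. The shares were not compared by a test.

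Of the AHR complex and its chaperones and coactivators, all 14 genes were found and 13 tested, with a median log2 fold change of 0.01. AHR, ARNT, AHRR and TIPARP are among them, and of the 9 other genes tested 4 had a positive and 5 a negative log2 fold change, with a median of -0.03. HSP90AA1, the chaperone that holds the receptor in the cytosol, had 263 ± 41.9 FPKM in the control and 237 ± 31.2 FPKM in the treated group (mean ± SD, n = 6 each). Its log2 fold change was -0.15 (SE 0.13). For its paralogue HSP90AB1 the means were 203 ± 57.4 and 203 ± 50.2 FPKM (SD, n = 6 each), and for the co-chaperone PTGES3 65.5 ± 18.6 and 63.3 ± 12.6 FPKM (SD, n = 6 each). All 3 were above the mean of the receptor in both groups.

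The other factors of the bHLH-PAS family, to which AHR and ARNT belong, include the hypoxia-inducible and the circadian factors. Of 12 genes found, 6 were tested, 3 with a positive and 3 with a negative value, and a median log2 fold change of 0.03. The largest was that of SIM2, chosen after its values were seen and one of the study's own DEGs, at 1.31 (SE 0.89). SIM2 was low, with at most 52 reads in any animal, and its log2 fold change was 0.68 without treated replicate 2. It reached the threshold on reads only through that animal, at 1.48 FPKM (highest control 0.373 FPKM), so that nothing is read from this rank. EPAS1, a hypoxia-inducible factor that also pairs with ARNT, was the most abundant with 119 ± 20.5 FPKM in the control and 129 ± 30.2 FPKM in the treated group (mean ± SD, n = 6 each). HIF1A had 31.7 ± 9.46 and 27.4 ± 3.69 FPKM (SD, n = 6 each), and the clock factor ARNTL had 7.90 ± 1.13 and 7.48 ± 0.788 FPKM (SD, n = 6 each). The mean of EPAS1 was above those of AHR and ARNT in both groups, and its log2 fold change of 0.10 (SE 0.17) did not exceed its error.

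Of other genes known to be inducible through AHR, 10 were found, among them ALDH3A1, and 8 tested, 3 with a positive and 5 with a negative value, and a median log2 fold change of -0.09. NFE2L2, the regulator of the antioxidant response, had 46.4 ± 10.2 FPKM in the control and 41.0 ± 7.06 FPKM in the treated group (mean ± SD, n = 6 each). NQO1, a quinone reductase that is a target of both AHR and NFE2L2, had 21.3 ± 6.78 and 20.3 ± 5.72 FPKM (SD, n = 6 each), with a log2 fold change of -0.05 (SE 0.24). The spread of NQO1 between animals was larger than the difference of the group means.

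LOC112580184, a glutathione S-transferase by its name in the study, ranged from 8.40 to 40.3 FPKM in controls (median 22.5) and from 0.357 to 20.2 FPKM in treated animals (median 11.7). Its log2 fold change was -1.59 (SE 0.80), and -0.74 without treated replicate 4, the animal at 0.357 FPKM, which was left out after seeing the data. The groups overlapped. Since the gene is among the DEGs that the study called from these animals with NOISeq, though not among those it reports for edgeR, its direction is not independent evidence.

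Enzymes of tryptophan breakdown, some of which make AHR ligands such as kynurenine, were represented by 17 genes, of which 9 were tested. The log2 fold change was positive for 2 and negative for 7 of these, with a median of -0.06. The most abundant were MAOA, a monoamine oxidase, with 62.5 ± 9.18 FPKM in the control and 61.2 ± 7.54 FPKM in the treated group (mean ± SD, n = 6 each), and the kynurenine aminotransferase KYAT1 with 28.5 ± 3.40 and 26.7 ± 4.29 FPKM (SD, n = 6 each). MAOB had 17.3 ± 2.61 and 16.9 ± 4.16 FPKM (SD, n = 6 each). Each of their log2 fold changes, -0.03 (SE 0.12), -0.10 (SE 0.13) and -0.06 (SE 0.18), was within its error. The other genes of the list were less abundant. Among these, named after their values were seen, IDO1 had 1.78 ± 1.17 and 2.39 ± 0.472 FPKM (SD, n = 6 each). Its log2 fold change was 0.67 (SE 0.39), with at most 62 reads in any animal and overlapping groups. IDO2 and TDO2 had at most 1 read in any animal and were not tested.

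Among the genes that work beside P450 enzymes, 2 of 5 listed genes were found. The microsomal epoxide hydrolase EPHX1, which opens the epoxides that CYP1A1 forms, had 23.6 ± 10.2 FPKM in the control and 19.1 ± 5.67 FPKM in the treated group (mean ± SD, n = 6 each), with a log2 fold change of -0.26 (SE 0.28). The soluble enzyme EPHX2 had 2.49 ± 2.25 and 2.37 ± 2.07 FPKM (SD, n = 6 each), while its log2 fold change was positive at 0.36 (SE 0.83). That sign depended on single animals, as the value was -0.11 without control replicate 3 and 0.74 without control replicate 5. In both genes the spread between animals was larger than the difference of the groups.

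Of the sulfotransferases, which conjugate phenols as UGT enzymes do, 4 of 8 listed genes were found and 2 tested. SULT1C4 had 25.1 ± 11.9 FPKM in the control and 26.8 ± 9.19 FPKM in the treated group (mean ± SD, n = 6 each). SULT2B1, known from keratinised epithelia for the sulfation of cholesterol, had 8.92 ± 3.01 and 8.18 ± 3.99 FPKM (SD, n = 6 each). Their log2 fold changes were 0.13 (SE 0.31) and -0.20 (SE 0.30). With 1 animal left out these were -0.04 to 0.33 and -0.39 to -0.01. UGT8 was found and had 0 reads in all 12 animals. Other cytochrome P450 genes were not analysed here.

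**Figure D3:**
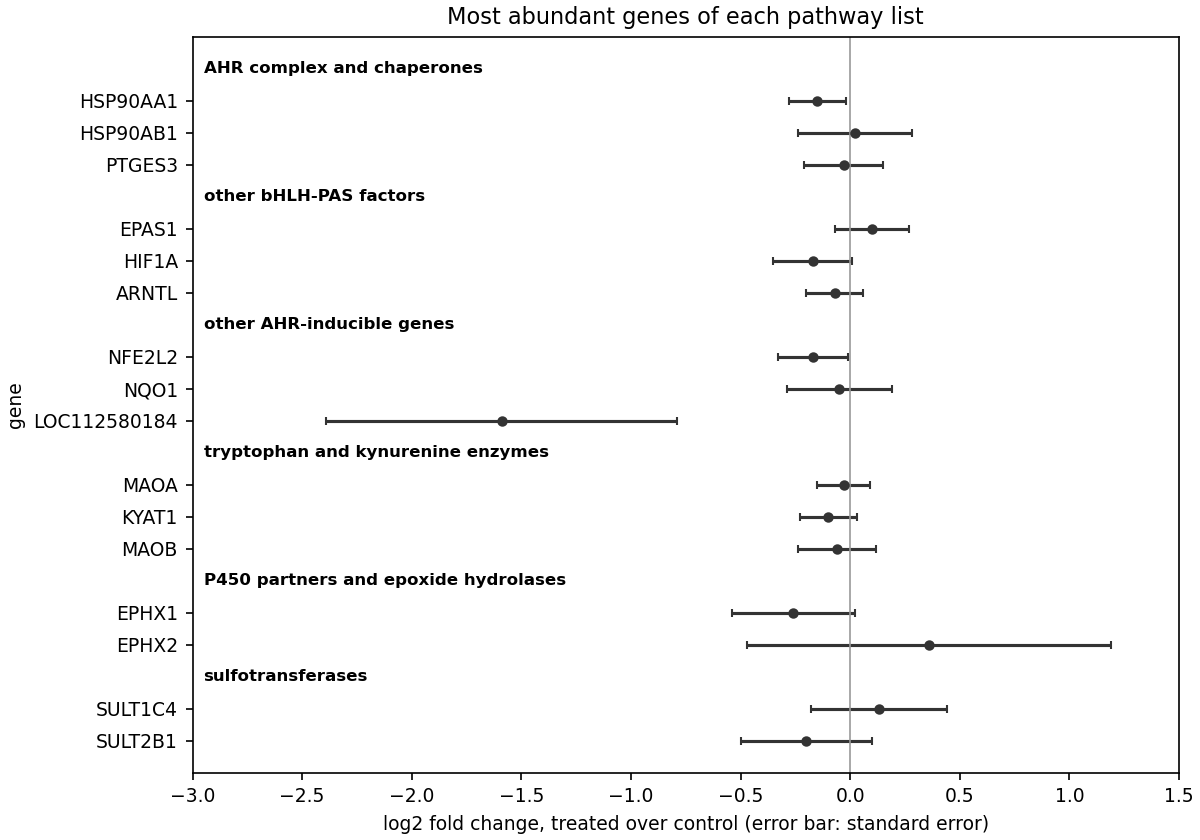
Log2 fold change, treated over control, of the most abundant tested genes of each pathway list (up to 3 per list besides the battery), with the standard error from limma as the bar. Most points lie within 1 standard error of 0, and LOC112580184 at -1.59 (SE 0.80), of which 1 treated animal makes up a large part, lies farthest from it.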

How the data were processed

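Trimming was done by the authors with Trimmomatic 0.39, alignment to the UOA_WB_1 genome with STAR 2.5.2b and strand-aware gene counting with featureCounts 2.0.0. The deposited values are FPKM. Labels tied 12 of the 16 columns to animals, and the other 4 were not used here. Reads were worked out from the steps of the FPKM for all 22972 genes above 0 (tolerance 0.001 read) and are the smallest whole numbers that match, so that totals may be slightly low. No library repeated another, as the chi-square per gene was at least 18.8 in all 66 pairs. Intervals and floors cover counting error only.

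Both tests used limma 3.58.1 in R 4.3.3 (lmFit, eBayes with trend) on log2(FPKM + 0.01). P-values were adjusted by Benjamini-Hochberg over the genes that reached the study's HTSFilter threshold on TMM-scaled reads in at least 1 animal. The methods were tested on simulated data. Correlations used 100000 permutations of animals within diets (Python 3.11.15, numpy 2.4.6). Genes named were the battery, list genes with a nominal p-value below 0.05 for diet, the 3 most abundant tested genes of each list, and the 10 genes most like LOC102399021; DES, SIM2 and AADAT were named after their values were seen. The battery and the lists were chosen with earlier results of these data known. Alternatives were other pseudocounts, filters and scalings, robust empirical Bayes, voom, a replicate block, marker scores as covariates, and each animal left out.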

Additional observations from a re-analysis of the deposited data

Results flagged for a closer look

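Within a group of 6 animals, the gap of the highest or lowest animal to the next one was compared with the whole range of the group, in FPKM. This was done for 30 groups, of which 6 had 1 animal far from the others. The cutoff flags about 1 in 20 groups of normally distributed values. That rate need not hold for FPKM or for groups that share the same animals, so that no excess is read from this count. In each of the 6 flagged groups the far animal was the highest. On the log2 scale, tried after seeing the data, only 3 of these stood apart, all of control replicate 6 (AHR, TIPARP and enteric glia and neuron markers), and so did the lowest treated animal for T and B cell markers, replicate 3, so that the other flags depend on the scale. Control replicate 6 stood apart for AHR, at 18.4 FPKM with the next control at 12.8 FPKM, and for TIPARP, at 38.0 FPKM with the next at 28.4 FPKM. The same animal had the highest sum of enteric glia and neuron markers, 15.7 FPKM with the next control at 7.60 FPKM, the highest sums of T and B cell (35.9 FPKM) and hepatocyte markers (1.82 FPKM) of all animals, the lowest sum of squamous epithelium markers (2980 FPKM), the highest LOC102396388 (30.4 FPKM) and the fewest reads on genes, 10531245. The part of these in its AHR and TIPARP values was not tested. Without control replicate 6, the log2 fold change for diet was 0.14 for AHR and 0.08 for TIPARP.

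Control replicate 1 had 1.33 FPKM of AHRR with the next control at 0.748 FPKM, and also the highest LOC102399021 of all animals. Treated replicate 4 had 0.995 FPKM of AHRR with the next treated animal at 0.741 FPKM. Treated replicate 3 had 22.3 FPKM of LOC102399021 where the next treated animal had 8.46 FPKM. It also had the lowest sums of all animals for T and B cell (13.0 FPKM), macrophage and dendritic cell (4.52 FPKM) and enteric glia and neuron markers (2.12 FPKM). The part of these in its LOC102399021 value was not tested. Leaving out treated replicate 3 gave a log2 fold change for diet of -2.22.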

How the results depend on the processing

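Under every alternative run, 0 genes had an adjusted limma p-value below 0.05, both for diet and for the slope on LOC102399021. The log2 fold change for diet kept its sign in all 23 alternatives for LOC102399021 (-2.22 to -1.32) and LOC102396388 (-0.79 to -0.52). Those of AHR, AHRR, ARNT and TIPARP, all near 0, took the opposite sign in 3, 6, 9 and 9 alternatives. The 2 genes of the battery with a nominal p-value below 0.05 for diet became 1 with the smooth muscle and fibroblast score as a covariate.

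The number of genes with a nominal p-value below 0.05 for diet was 157, and 562 with no filter, 301 with the genes of at least 0.1 FPKM in at least 6 animals, where more genes were tested, 343 with the smooth muscle and fibroblast score and 320 with the squamous epithelium score. With 1 animal left out it was 142 to 325, the latter without treated replicate 6. For the slope on LOC102399021 it was 513, and 961 with no filter, 999 and 1020 with the scores and 297 to 915 with 1 animal left out, the lowest without control replicate 4 and the highest without treated replicate 1. Without treated replicate 1, 1 gene of the battery, ARNT, had a nominal p-value below 0.05, where 0 did with all animals and with any other animal left out. The slope of AHRR was -0.04 to 0.11 with 1 animal left out, negative only without control replicate 1. The causes of these shifts were not tested.

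Same-numbered animals of both groups are different animals, and their deviations correlated at -0.0134 to 0.416, with 4 of 6 controls closest to their own number. With the replicate block, 322 genes had a nominal p-value below 0.05 for diet and 432 for the slope, and 2 and 0 genes of the battery did. Motif counts in promoters were not run. Added after seeing the data, leaving out the 2 animals farthest from 0 on the centred scale turned the r of ALDH3A1 with LOC102399021 from -0.22 to 0.64 and no other, and leaving out the 2 farthest before centring turned that of AHRR from 0.25 to -0.35 and gave ARNT 0.80, with a permutation p below 0.05. With 1 animal left out, the r of AHR and TIPARP was 0.56 to 0.77, that of AHRR and LOC102396388 -0.67 to -0.15, and the log2 fold changes of LOC112580184 and SIM2 were -1.89 to -0.74 and 0.68 to 1.81.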
